A study of Mus musculus with 11 samples.

Results

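Zic1, Zic2, Zic4 and Zic5 encode zinc finger transcription factors of the Zic family, and all 4 are rows of a table of 13498 genes counted in embryonic mouse retina. The 4 genes were selected from earlier values of these same libraries, from a comparison of double-mutant (DKO) with control (WT) retina. That contrast, DKO against WT, is therefore described here without a test for these genes. All 4 passed the filter on low counts that left 13292 genes, and all had reads in every library.

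Retinas of NMRI mice were taken at E13.5, and total RNA was sequenced after removal of ribosomal RNA. Every embryo carried 2 floxed copies of Six3, and every dam was given tamoxifen on 2 days, E10.5 and E11.5. The WT group (3 libraries) had no Cre and intact Six6. The Six3KO group (3 libraries) carried CAGGCre-ERTM, a widely expressed Cre that tamoxifen activates, and intact Six6. The Six6KO group (2 libraries) had no Cre and was Six6 null from the germ line, and the DKO group (3 libraries) was Six6 null and carried CAGGCre-ERTM. Since Cre is present only in Six3KO and DKO, Six3 loss and Cre cannot be told apart in comparisons of these groups with WT or Six6KO. DKO against Six3KO compares groups that both carry it. The design text speaks of pairs of retinas and biological replicates. The study asked what Six3 and Six6, homeodomain factors of the eye field, do together in retinal progenitors.

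Library totals ran from 7807744 to 16403191 reads. Six3 lay at 30.3 to 75.9 CPM (reads scaled to library size with edgeR's TMM factors) in Six3KO and 56.2 to 98.2 CPM in DKO, against 164 to 299 CPM in WT. Six6 lay at 76.8 and 131 CPM in Six6KO and 52.8 to 99.8 CPM in DKO, against 225 to 340 CPM in WT. Markers of retinal progenitors were present in every library: the 8 genes listed, among them Rax, Pax6 and Lhx2, summed to 1427 to 3238 CPM.

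Zic proteins bind DNA through C2H2 zinc fingers related to those of the Gli proteins, the effectors of Hedgehog signalling. In the early neural tube Zic genes mark dorsal progenitors and neural crest, and they are also expressed in meningeal cells. In the eye, Zic1 and Zic2 are known in the peripheral retina and ciliary margin, and Zic2 later directs the axons of ventrotemporal ganglion cells to the same side of the brain, where it acts upstream of the guidance receptor gene Ephb1.

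The 4 genes form 2 pairs of neighbours on opposite strands (positions from GENCODE vM21, build GRCm38). Zic1 (ENSMUSG00000032368.14) lies on the minus strand of chromosome 9, chr9:91358058-91365810, and Zic4 (ENSMUSG00000036972.14) on the plus strand at chr9:91362413-91389348. Their spans share 3398 bases, but their merged exons share only 60, which is 1.1% of the exon bases of Zic1 and 0.6% of those of Zic4. A further 468 exon bases of Zic4 (4.5%) are shared with Gm37477, an unconfirmed transcript on the minus strand. Zic5 (ENSMUSG00000041703.7) lies on the minus strand of chromosome 14, chr14:122456795-122465677, and Zic2 (ENSMUSG00000061524.8) on the plus strand at chr14:122475435-122479852, with 9757 bases between them and no exon shared with another gene. Reads of shared bases cannot be assigned to 1 gene, since no source used here says whether strand was used in counting.

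RefSeq promoter windows (GRCm38.p6, 250 bases before to 50 after a start) were given for 3 of the 4 genes, Zic1, Zic4 and Zic5. The stretches of the Zic1 and Zic5 windows outside any GENCODE exon are shown because one gene of each pair can be compared with the other in CpG content, and capitals mark CpG dinucleotides. The Zic1 stretch is chr9:91365811-91366018 (minus strand, 208 bases, 26 CpG) and the Zic5 stretch is chr14:122465678-122465908 (minus strand, 231 bases, 11 CpG).
Zic1: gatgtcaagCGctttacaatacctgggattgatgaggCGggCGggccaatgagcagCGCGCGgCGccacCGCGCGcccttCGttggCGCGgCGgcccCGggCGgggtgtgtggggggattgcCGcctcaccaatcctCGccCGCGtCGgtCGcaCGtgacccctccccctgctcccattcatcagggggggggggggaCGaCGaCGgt
Zic5: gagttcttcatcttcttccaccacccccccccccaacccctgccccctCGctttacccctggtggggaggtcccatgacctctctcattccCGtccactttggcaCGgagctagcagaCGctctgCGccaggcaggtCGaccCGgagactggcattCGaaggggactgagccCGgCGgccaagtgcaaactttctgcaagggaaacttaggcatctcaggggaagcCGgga
Over the 250 upstream bases, Zic1 had 66.0% G and C and a CpG observed-to-expected ratio of 0.99, higher than in 94.0% of 32851 windows. Zic5 had 62.4% and a ratio of 0.46. The Zic4 window, which belongs to a start inside the gene and is exonic in GENCODE, had 44.4% and a ratio of 0.38, against a median of 0.37 over all windows. The core TGATAC, bound by homeodomain factors of the Six3 and Six6 family, and the core GGGTGGTC, bound by Gli and Zic proteins, were searched on both strands. Neither was found in the 3 windows of 300 bases, and 5.46% and 0.81% of all windows held them.

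Zic1 and Zic4, the chromosome 9 pair, had the larger differences, and in DKO both stood above every library of the other groups. Zic1 stood at 379.4, 377.8 and 264.6 CPM in DKO libraries rh010, rh011 and rh021. It stood at 65.33, 87.3 and 88.95 CPM in WT, at 90.27, 100.2 and 106.5 CPM in Six3KO and at 135.6 and 89.22 CPM in Six6KO. All 3 DKO libraries were thus high, the single mutants lay at or slightly above WT, and rh021 was the lowest DKO library. Zic4 stood at 38.36, 39.26 and 26.72 CPM in the same DKO libraries, which hold 468, 474 and 337 reads. In WT it stood at 4.064, 5.088 and 2.804 CPM (52, 44 and 22 reads), in Six3KO at 5.17, 8.063 and 9.887 CPM and in Six6KO at 8.702 and 4.6 CPM. Every Six3KO library lay above every WT library for Zic4, with 5.17 and 5.088 CPM as the nearest pair, while the Six6KO libraries overlapped WT.

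Zic2 and Zic5, the chromosome 14 pair, were about 2 fold higher in DKO and nearly level in the other groups. Zic2 stood at 249.3, 252.3 and 217.5 CPM in DKO, at 75.65, 125.6 and 129.1 CPM in WT, at 131.8, 129 and 83.13 CPM in Six3KO and at 145.7 and 84.19 CPM in Six6KO. Zic5 stood at 41.8, 41.41 and 37.82 CPM in DKO, at 12.89, 23.59 and 22.05 CPM in WT, at 20.19, 19.58 and 11.6 CPM in Six3KO and at 24.13 and 14.76 CPM in Six6KO. For both genes the DKO values were again all above the rest, and WT, Six3KO and Six6KO each held 1 library well below its others. For all 4 genes every DKO library exceeded all 8 other libraries, a pattern that 4.21% of all tested genes (559) shared; since DKO and WT levels led to the choice of the family, nothing is read from that count.

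**Figure D1:**
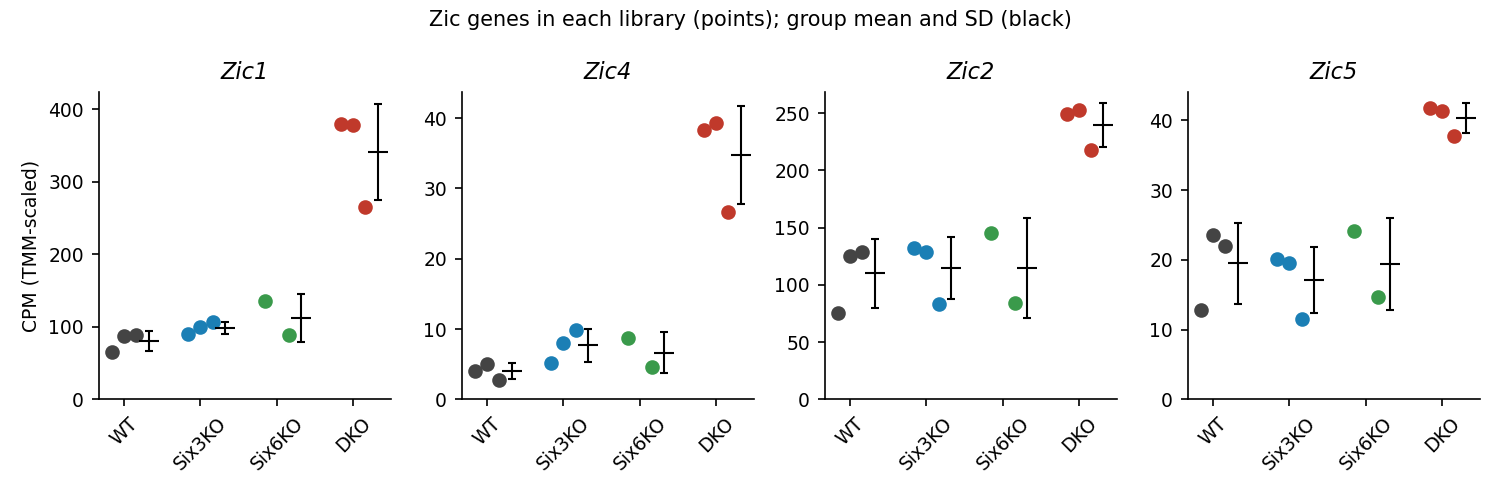
TMM-scaled CPM (vertical axes, linear from 0) of Zic1, Zic4, Zic2 and Zic5 in each library of WT, Six3KO, Six6KO and DKO (points); black marks give each group's mean with its SD. The DKO points lie above all others in each panel, at 264.6 to 379.4 CPM for Zic1 and 37.82 to 41.8 CPM for Zic5.

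Per length, the order of the genes was Zic2, Zic1, Zic5 and Zic4 in every group, measured as CPM per kb of merged exons. In WT the levels were 38.2 ± 10.4 (mean ± SD, n = 3) for Zic2, 14.1 ± 2.31 for Zic1, 3.99 ± 1.18 for Zic5 and 0.386 ± 0.111 for Zic4. In DKO they were 83.2 ± 6.69, 59.8 ± 11.6, 8.25 ± 0.449 and 3.37 ± 0.677 (n = 3). No neighbours in this order overlapped within a group. The exons of Zic4 merge to 10.335 kb over many transcripts, the longest of the 4, so its level per kb is the most dependent on the annotation.

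In DKO against WT, the contrast that led to the choice, the fitted log2 fold changes were 2.08 ± 0.21 (± standard error) for Zic1, 3.12 ± 0.35 for Zic4, 1.12 ± 0.27 for Zic2 and 1.05 ± 0.28 for Zic5. These are folds of 4.23, 8.68, 2.18 and 2.07.

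DKO against Six3KO adds the loss of Six6 to retinas that already carry Cre and the Six3 deletion. It shares the DKO libraries with the contrast above and so is not independent of it. Zic1 was 3.44 fold higher (log2 1.78 ± 0.20, edgeR adjusted p = 0.00615) and Zic4 4.53 fold higher (2.18 ± 0.33, edgeR adjusted p = 0.025), with 3 of 3 DKO libraries above 3 of 3 Six3KO libraries, as in 13.4% of all genes. Zic2 stood at 1.06 ± 0.27 and Zic5 at 1.23 ± 0.28, and neither passed after adjustment over all genes (edgeR adjusted p = 0.123 and 0.0934). So 2 of 4 members rose, where 0.587% of all genes were called in either direction. Since DKO levels took part in the choice of the family, nothing is read from that count. The median over the members was 1.51, against 0.01 over all genes. The call of Zic1 held without each of the 6 libraries in turn (edgeR adjusted p up to 0.04). That of Zic4 was lost in 4 of these 6 fits (without rh006, rh010, rh011 or rh012, adjusted p up to 0.141). The calls and their stability rest on the same DKO levels, so the kept call of Zic1 is no support.

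DKO against Six6KO adds the Six3 deletion and Cre to the loss of Six6. This comparison, too, shares the DKO libraries with DKO against WT and is not independent of it. Zic1 was 3.03 fold higher (log2 1.60 ± 0.23, edgeR adjusted p = 0.0336). Zic4 stood at 2.39 ± 0.39, just short of the threshold (edgeR adjusted p = 0.0518), Zic2 at 1.06 ± 0.31 (adjusted p = 0.183) and Zic5 at 1.05 ± 0.32 (adjusted p = 0.202). Thus 1 of 4 members rose, where 0.233% of all genes were called, and every DKO library lay above both Six6KO libraries for each of the 4, as it did for 16.8% of all genes. Since DKO levels took part in the choice of the family, nothing is read from these counts or from the call of Zic1. With 2 Six6KO libraries these calls turned on single libraries: Zic1 was lost without rh010, rh011, rh007 or rh020 (adjusted p up to 0.212) and kept without rh021, where Zic4 was called as well (adjusted p = 0.0425).

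**Figure D2:**
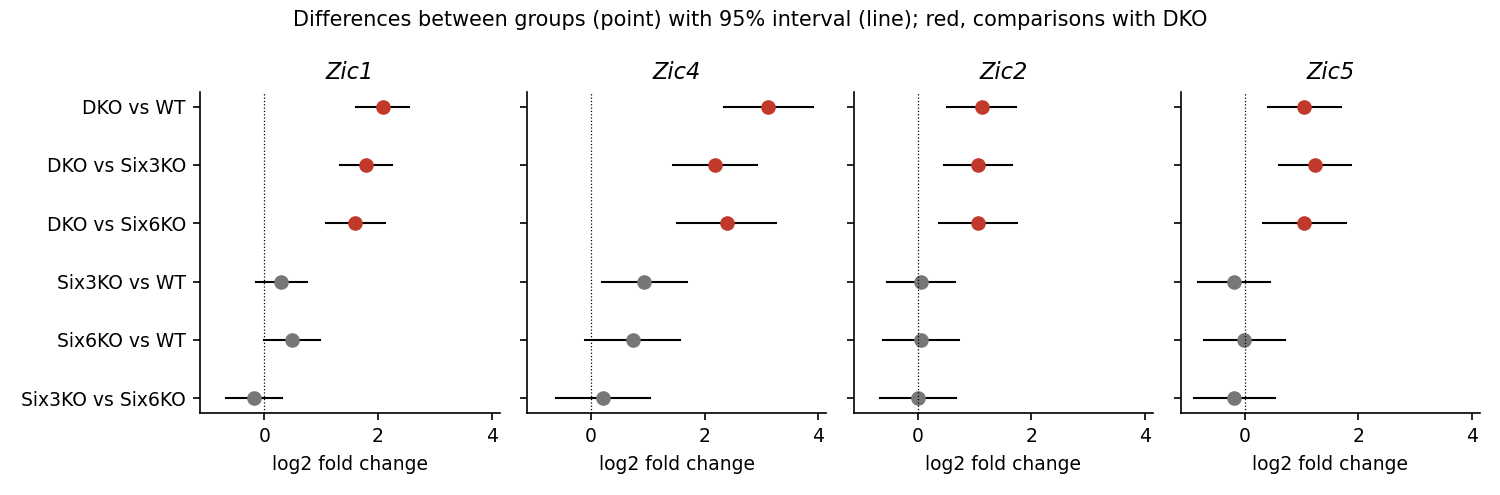
Log2 fold change (horizontal axes; points) with its 95% interval (lines) for each Zic gene in 6 comparisons between groups (vertical axis). The 3 comparisons with DKO (red) lie between 1.05 and 3.12, and the comparisons among WT, Six3KO and Six6KO (grey) between -0.18 and 0.94.

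Neither single loss changed a Zic gene past the threshold. In Six3KO against WT, 0 of 4 members were called, where 0.00752% of all genes were called (1 gene, Esr1, whose sequence is part of the Cre fusion). Zic4 stood at 0.94 ± 0.34 (95% interval 0.187 to 1.69, edgeR unadjusted p = 0.0196, adjusted p = 1) and Zic1 at 0.30 ± 0.20 (-0.145 to 0.742). Zic2 stood at 0.06 ± 0.27 (-0.537 to 0.658) and Zic5 at -0.18 ± 0.28 (-0.813 to 0.454). These intervals leave room for a rise of up to 1.69 (log2) in Zic4 and do not show that the genes were level.

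In Six6KO against WT, 0 of 4 members and 0% of all genes were called by edgeR, with 518 of 13292 genes at an unadjusted p under 0.05 and 2 called by DESeq2. If no gene differed, a share of about 0.05 of the genes would have such a p. Zic1 stood at 0.48 ± 0.22 (95% interval -0.00911 to 0.974, edgeR unadjusted p = 0.0536) and Zic4 at 0.73 ± 0.37 (-0.104 to 1.57). Zic2 stood at 0.06 ± 0.30 (-0.604 to 0.731) and Zic5 at -0.00059 ± 0.32 (-0.714 to 0.713). The chromosome 9 pair thus had estimates above 0 with either single loss, short of the threshold, and the chromosome 14 pair had estimates near 0.

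Six3KO against Six6KO is the comparison that shares no library with DKO against WT. None of the 4 members was called, where 0.00752% of all genes were called (again Esr1 alone). Zic1 differed by -0.18 ± 0.22 (95% interval -0.676 to 0.309), Zic4 by 0.21 ± 0.37 (-0.619 to 1.03), Zic2 by -0.0028 ± 0.30 (-0.671 to 0.665) and Zic5 by -0.18 ± 0.32 (-0.886 to 0.528). A difference of 2 fold or more between the single losses lies outside the intervals of Zic1, Zic2 and Zic5 but not of Zic4.

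The excess of DKO over the 2 single effects added together (WT plus DKO, less Six3KO and Six6KO, all log2) was above 0 for all 4 genes but passed for none. It was 1.30 ± 0.30 for Zic1 (95% interval 0.629 to 1.97), 1.45 ± 0.50 for Zic4 (0.33 to 2.57), 1.00 ± 0.40 for Zic2 (0.0964 to 1.90) and 1.23 ± 0.43 for Zic5 (0.276 to 2.19). Adjusted p from edgeR ran from 0.336 (Zic1) to 0.452 (Zic2). Across all genes 0% were called by edgeR, with 1328 of 13292 genes at an unadjusted p under 0.05, where a share of about 0.05 would lie if no gene differed. DESeq2 called 240 genes, which included Zic1 (DESeq2 adjusted p = 0.00985). This contrast uses the DKO and WT libraries as well. Their levels led to the choice of the family, so nothing is read from its p-values or calls for the Zic genes.

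The reads of each pair were also set against each other, as a description with no test, since the ratios restate the levels that led to the choice. Zic1 had 9.81 ± 0.160 reads per read of Zic4 in DKO (n = 3), 21.7 ± 8.74 in WT (n = 3), 13.6 ± 3.48 in Six3KO (n = 3) and 15.59 and 19.4 in the Six6KO libraries. The DKO libraries ran from 9.622 to 9.905, and the nearest of the others was Six3KO library rh026 at 10.78. The log2 differences of Zic1 and Zic4 from Six3KO, 1.78 ± 0.20 and 2.18 ± 0.33, lay within their errors of each other. Those from WT (2.08 ± 0.21 and 3.12 ± 0.35) and from Six6KO (1.60 ± 0.23 and 2.39 ± 0.39) did not. Both genes were read in the same libraries, so these separate errors do not measure the spread of their difference. Zic2 had 5.94 ± 0.171 reads per read of Zic5 in DKO, 5.68 ± 0.310 in WT, 6.76 ± 0.352 in Six3KO and 5.703 and 6.038 in Six6KO. The ratio of the chromosome 14 pair thus overlapped between DKO and WT, and the highest values were those of Six3KO. Of the reads of the 4 genes together, Zic1 made up 38.0 ± 2.89% in WT and 51.7 ± 2.86% in DKO (n = 3 each), and Zic2 51.0 ± 2.76% and 36.8 ± 2.58%. Six3KO library rh026, at 50.45% for Zic1, lay within the DKO range.

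Outside DKO, the 2 pairs of neighbours had the highest correlations among the 6 pairs of members, and their order depended on the measure. Over the 8 WT, Six3KO and Six6KO libraries the Pearson r of their log2 CPM was 0.943 (Spearman rho 0.81; r = 0.904 without the 2 libraries farthest from the median of Zic2). For Zic1 and Zic4 it was 0.698 (rho 0.857; r = 0.856 without 2 libraries). The other 4 pairs ranged from -0.14 to 0.539, and 3 of them changed sign without 2 libraries: Zic1 and Zic2 went from 0.539 to -0.404, Zic1 and Zic5 from 0.374 to -0.687, and Zic4 and Zic5 from -0.14 to 0.676. The libraries share depth and dissection, and these values are descriptions only.

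Libraries differed in the RNA of tissues around the retina, and Zic2 and Zic5 were lowest where pigment epithelium genes were highest. The 8 pigment epithelium genes summed to 1574 CPM in WT rh016, 1514 CPM in Six3KO rh026 and 1726 CPM in Six6KO rh020, and to 809.4 CPM or less in the other 8 libraries. These 3 libraries held the 3 lowest values of Zic2 (75.65, 83.13 and 84.19 CPM) and of Zic5 (12.89, 11.6 and 14.76 CPM), and the 3 lowest sums of progenitor genes (2142, 1427 and 1814 CPM). Whether these tissues have a part in the Zic levels was not tested. In bulk RNA, fewer cells of a type and less RNA per cell cannot be told apart. Without these 3 libraries, a choice made after the values were seen, Zic2 stood at 0.88 ± 0.08 and Zic5 at 1.02 ± 0.10 in DKO against Six3KO, smaller differences with smaller errors than with all libraries. All 4 members were then called there, but the libraries left out are those lowest in Zic2 and Zic5, so these calls support nothing. None was then called in DKO against Six6KO, where Zic1 stood at 1.35 ± 0.22 (adjusted p = 0.0807) with 1 Six6KO library left, assumed to vary like the other groups.

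**Figure D3:**
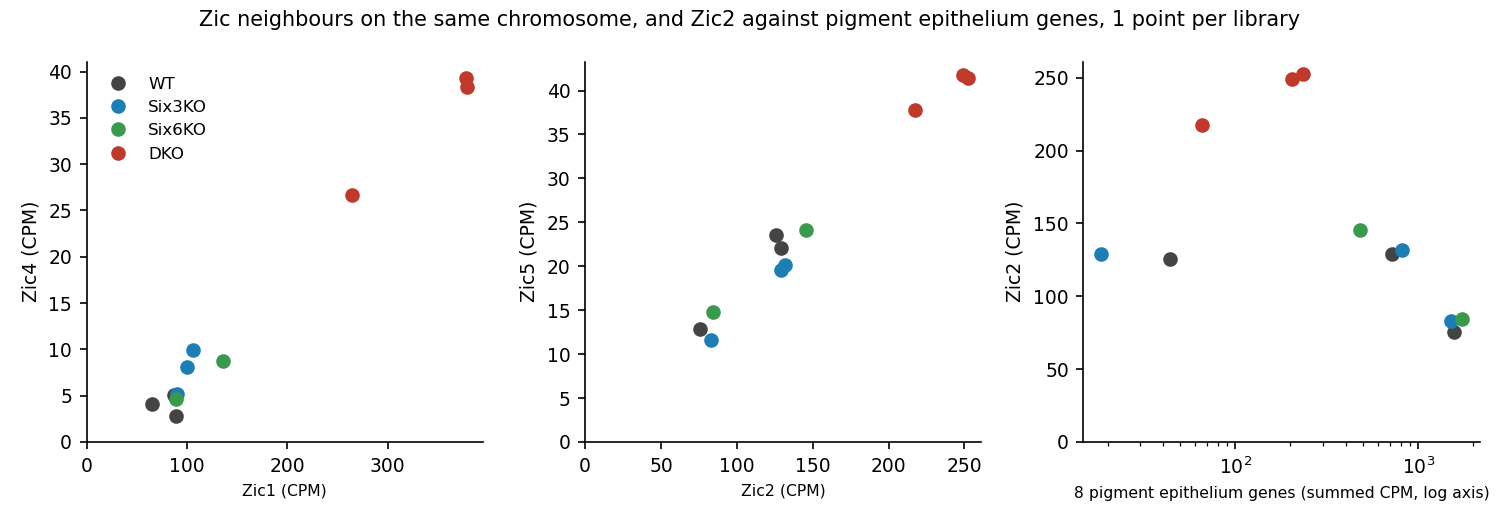
CPM of Zic4 against Zic1, of Zic5 against Zic2, and of Zic2 against the summed CPM of 8 pigment epithelium genes (log horizontal axis), with 1 point per library coloured by group. The 3 libraries with 1514 CPM or more of pigment epithelium genes have the lowest Zic2, at 75.65 to 84.19 CPM.

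DKO libraries held less RNA of periocular mesenchyme, lens, pigment epithelium and vessels than most others. The 14 periocular mesenchyme and meningeal genes summed to 50.98 to 119.7 CPM in DKO, 357.7 to 2089 CPM in WT, 387.8 to 3867 CPM in Six3KO and 1524 and 2385 CPM in Six6KO. Foxc2, a defining gene of this mesenchyme, was at 0 in DKO library rh021 and in WT rh023. The 10 lens genes summed to 8.007 to 149.7 CPM in DKO and reached 18120 CPM in Six3KO rh012, while WT rh016, WT rh023 and Six6KO rh007 (26.96, 122.7 and 41.31 CPM) lay within the DKO range. Crygs was at 0 in DKO rh010 and rh021, WT rh016 and rh023 and Six6KO rh007, and Foxe3 in DKO rh010 and rh021 and Six6KO rh007. Pigment epithelium genes summed to 65.72 to 234.3 CPM in DKO, with none at 0. WT rh023 (43.71 CPM) and Six3KO rh012 (18.53 CPM) lay below that range, and the remaining libraries lay above it. The 8 endothelial genes summed to 115 to 117 CPM in DKO, with none at 0, and to 179.2 CPM or more elsewhere. Kdr alone made up 77.1 to 92.4 CPM of this in DKO, 182 of 186.4 CPM in WT rh023 and 169 of 179.2 CPM in Six3KO rh012. Pecam1, Cdh5, Tie1, Emcn, Flt1 and Esam were lower in WT rh023 and Six3KO rh012 than in any DKO library, while Tek was not. The separation of the sums is thus one of Kdr for WT rh023 and Six3KO rh012. Of the 6 forebrain genes tested, which would mark tissue behind the eye, only Dbx1 was called in DKO against Six3KO, and they summed to 116.5 to 129 CPM in DKO, 75.1 to 111.9 CPM in WT, 89.36 to 105.6 CPM in Six3KO and 127.3 and 56.38 CPM in Six6KO, whose higher library lay within the DKO range. Dbx1 was at 0 in Six6KO rh007 and WT rh024, and Lhx9 in WT rh024. The 7 macrophage genes summed to 43.6 to 107.4 CPM in DKO and 22.66 to 50.08 CPM in WT, with none at 0. Their sums were 50.68 to 68.81 CPM in Six3KO and 33.42 and 70.18 CPM in Six6KO, which overlapped DKO. The part of these tissues in the differences was not tested. Without the 3 libraries richest in lens genes (Six3KO rh012 and rh026, Six6KO rh020), chosen likewise after the values were seen, Zic1 stood at 1.92 ± 0.29 against the single Six3KO library left (rh006) and Zic4 at 2.76 ± 0.40, both larger than with all libraries. Neither was called (edgeR adjusted p = 0.261 and 0.246) in this fit, in which the lone library is assumed to vary like the other groups.

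The 4 Zic genes were also set against progenitor genes instead of all reads, as a description of the same libraries with no test. In all, 0 of the 8 progenitor genes were called in the comparisons of DKO with WT, Six3KO or Six6KO. Per 100 CPM of the 8 progenitor genes, Zic1 stood at 14.6 ± 4.04 in DKO and 3.13 ± 0.478 in WT (n = 3 each), at 4.82 ± 2.29 in Six3KO (n = 3) and at 4.88 and 4.918 in Six6KO. The values were 1.49 ± 0.425 and 0.154 ± 0.0376 for Zic4, 10.2 ± 1.77 and 4.23 ± 0.930 for Zic2, and 1.71 ± 0.256 and 0.745 ± 0.151 for Zic5 in DKO and WT. The lowest DKO values were 9.898 for Zic1, 0.9993 for Zic4, 8.136 for Zic2 and 1.414 for Zic5, and the highest of the other libraries were 7.466, 0.6928, 5.825 and 0.903. Sums of these progenitor genes overlapped between DKO (2220 to 2674 CPM) and WT (2142 to 3238 CPM).

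Within DKO, rh021 held the least of each Zic gene and the most of both deleted genes. It had 98.2 CPM of Six3 and 99.8 CPM of Six6, the highest of the 3 DKO libraries, beside the lowest Zic1 (264.6 CPM) and Zic4 (26.72 CPM). With 3 libraries no relation was tested.

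Genes whose levels followed each Zic gene most closely over the 11 libraries were named by Pearson r of log2 CPM among the 11284 genes that averaged 5 CPM or more. For Zic1 these were Mab21l2, a regulator of eye development (r = 0.972), Lrrc1 (0.971), Filip1 (0.971) and Shisa2, an endoplasmic reticulum protein that holds back Wnt and FGF receptors (0.970). Filip1 averaged 52.5 CPM in WT, 112 CPM in Six3KO, 119 CPM in Six6KO and 716 CPM in DKO. For Zic4 they were Galnt12 (0.968), the neuregulin receptor gene Erbb4 (0.948), Fam126a (0.945) and Filip1 (0.943). These values rest largely on the DKO libraries: among the 8 others r fell to between 0.599 and 0.835 for Zic1 and 0.579 and 0.829 for Zic4.

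For the chromosome 14 pair the likeness was also high among the libraries outside DKO. Zic2 was followed most closely by the guidance ligand gene Slit2 (r = 0.976), Lin28b, an RNA-binding repressor of let-7 processing (0.969), the BMP receptor gene Bmpr1b (0.962) and the receptor phosphatase gene Ptprz1 (0.961), with r of 0.859 to 0.940 among the 8 other libraries. Zic5 was followed by the Polycomb subunit gene Pcgf6 (0.981), Fgf13 (0.972), the matrix gene Tnr (0.967) and Ptprz1 (0.962), with 0.901 to 0.965 among the 8. Group means were 55.7 CPM in WT and 81.6 CPM in DKO for Lin28b, and 41.0 CPM and 50.3 CPM for Pcgf6.

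Among the Gli and Glis genes, the closest relatives of the Zic family, Glis3 was the 1 of 6 that rose. It stood at 99.8 ± 30.7 CPM in DKO, 26.1 ± 0.621 CPM in WT and 25.7 ± 1.73 CPM in Six3KO (n = 3 each), and at 28.67 and 33.53 CPM in Six6KO. Its log2 fold change was 1.96 ± 0.20 against Six3KO (edgeR adjusted p = 0.00607) and 1.68 ± 0.23 against Six6KO (adjusted p = 0.0336). Over all genes 0.587% and 0.233% were called in these comparisons, in that order. Gli3, mainly a repressor in the absence of Hedgehog signal, stood at 0.69 ± 0.18 against Six3KO (adjusted p = 0.13), and Gli1, a direct Hedgehog target, at -2.98 ± 0.89 (adjusted p = 0.182). Gli1 differed widely between DKO libraries, from 0.246 CPM in rh010 to 6.66 CPM in rh021, where WT held 34.92 to 110.4 CPM. The median of the 6 genes was -0.16, against 0.01 over all genes.

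Of 11 Hedgehog ligands, receptors and transducers tested, 1 rose and 3 fell in DKO against WT, where 1.29% of all genes were called, and 0 of 11 were called against Six3KO or Six6KO. The co-receptor gene Cdon rose from 431 ± 136 to 1030 ± 199 CPM (log2 1.26 ± 0.23, edgeR adjusted p = 0.0389). The ligand gene Shh fell from 3.87 ± 2.18 to 0.135 ± 0.122 CPM (-4.73 ± 0.82, adjusted p = 0.0307), on 111 and 5 reads. Hhip, whose product binds and removes the ligand, fell by 2.39 ± 0.45 (edgeR adjusted p = 0.0413). Against Six3KO the estimates were 1.13 ± 0.23 for Cdon, -2.41 ± 0.84 for Shh and -1.54 ± 0.44 for Hhip. The other 7 genes did not pass in any of the 3 comparisons.

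Of 11 dorsal neural tube genes tested, Wnt3a rose and 10 were not called in DKO against Six3KO, where 0.587% of all genes were called. Wnt3a, a Wnt ligand of the roof plate and cortical hem, stood at 8.33 ± 2.50 CPM in DKO, 0.779 ± 0.614 CPM in WT and 0.517 ± 0.174 CPM in Six3KO (n = 3 each), a log2 difference from Six3KO of 4.01 ± 0.69 (edgeR adjusted p = 0.0393). Dbx1, the forebrain list's member that was called, stood at 8.007 to 15.49 CPM in DKO and at 0.3027 CPM or less in every other library. DKO libraries all lay above the rest for 4.21% of all tested genes. Against Six3KO the median was -0.25 for the dorsal neural tube list and 0.73 for the forebrain list.

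Of 11 ganglion cell genes of axon crossing, Nrp1, a receptor for semaphorins and VEGF, fell and 10 were not called in DKO against Six3KO. Over all genes 0.587% were called in that comparison. Nrp1 averaged 62.0 ± 6.36 CPM over the DKO libraries and 111 ± 14.8 CPM over those of Six3KO (log2 -0.84 ± 0.14, edgeR adjusted p = 0.0393). Ephb1, known to act downstream of Zic2 in ganglion cells, stood at 63.4, 84.1 and 54.3 CPM in DKO, between 9.30 and 20.7 CPM in WT, between 10.8 and 20.7 CPM in Six3KO and at 24.0 and 4.28 CPM in Six6KO. All DKO libraries lay above the rest for Ephb1, a pattern that 4.21% of all tested genes shared. Its estimates of 2.07 ± 0.55 against Six3KO and 2.25 ± 0.65 against Six6KO did not pass (edgeR adjusted p = 0.136 and 0.181).

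Of 14 ciliary margin genes other than Zic genes, 0 were called in DKO against Six3KO or Six6KO, and Cdo1, a cysteine dioxygenase gene, was the 1 called in DKO against WT (-1.93 ± 0.39, edgeR adjusted p = 0.0496). The transcription factor gene Otx1 stood at 1.30 ± 0.50 and Cdo1 at -1.78 ± 0.39 against Six3KO (adjusted p = 0.29 and 0.0815). The sums of the list overlapped between groups, at 1948 to 2683 CPM in DKO and 1770 to 2692 CPM in WT. Of 7 optic stalk genes, 0 were called in these comparisons. Against Six3KO the guidance ligand gene Ntn1 stood at -3.81 ± 0.93 (adjusted p = 0.115), Spon1 at -1.90 ± 0.77 and Vax1 at 1.29 ± 0.57, with a list median of -0.50.

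**Figure D4:**
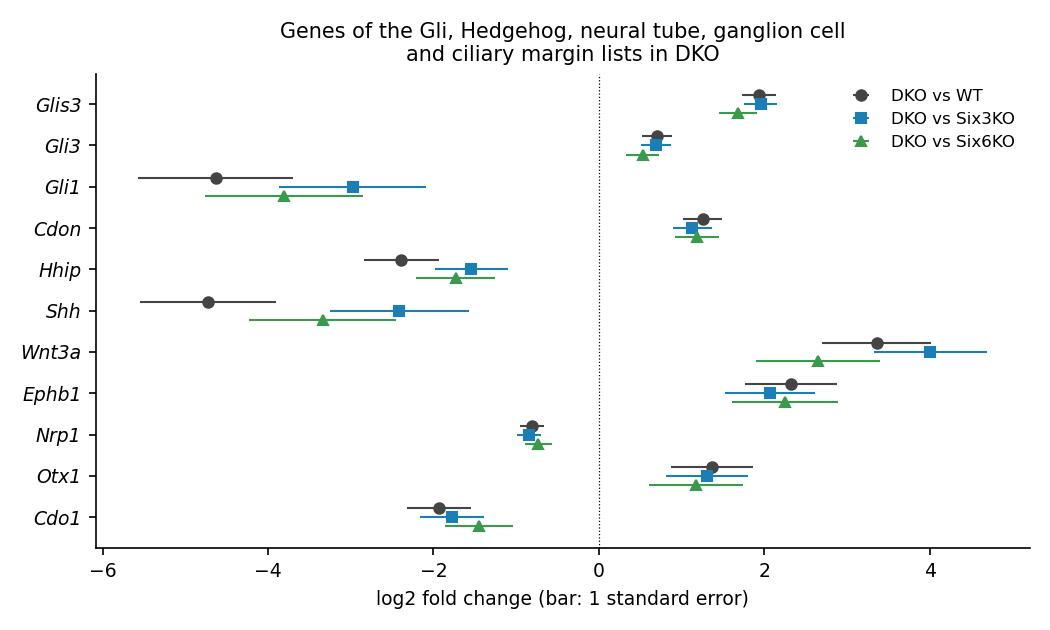
Log2 fold change (horizontal axis; bars, 1 standard error) of 11 genes from the Gli and Glis, Hedgehog, dorsal neural tube, ganglion cell and ciliary margin lists (vertical axis) in DKO against WT (circles), Six3KO (squares) and Six6KO (triangles). Glis3 lies between 1.68 and 1.96 in the 3 comparisons, while Shh runs from -4.73 against WT to -2.41 against Six3KO.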

How the data were processed

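Total RNA of mouse retina at E13.5 was sequenced in 11 libraries. The authors deposited raw read counts per gene symbol. Per the submitters' processing notes, the tools were Trim Galore 0.3.7, TopHat2 2.0.13, HTSeq 0.6.1, Cufflinks 2.2.1 and Cuffdiff, with build mm10. Annotation, strand setting and row filter: not given in the sources used here. Each column names its group but no replicate number.

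Counts were fitted in R 4.3.3 with edgeR 4.0.16 (quasi-likelihood, robust, TMM, filterByExpr with minimum count 10, 1 mean per group, all libraries), and p-values were adjusted over 13292 genes (Benjamini-Hochberg, threshold 0.05). Standard errors are the log2 fold change over the square root of F, and 95% intervals come from the same fit. CPM values are TMM-scaled, and log2 CPM has a prior count of 2. The fit was tested on simulated data. Replicate libraries differed by more than counting noise (chi-square over its degrees of freedom, 9.72 to 77.3). DESeq2 1.42.0, other scalings, no filter, a fit of the compared groups only and leaving out single libraries were tried as alternatives.

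Members and lists were chosen with earlier results of these data known. Beside the members, named genes are up to 4 per list, ranked by p in DKO against Six3KO or Six6KO, of which those that bear on a list's result are printed, and the 4 genes most like each member (Zic genes, predicted genes, Xist, Tsix and Y-linked genes left out). Some genes of the table and lists are not reported here.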

Additional observations from a re-analysis of the deposited data

How the results depend on the processing

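All estimates of the 4 Zic genes in comparisons with DKO stayed above 0 under every alternative run. Every DKO library lay above every other library for each gene, and DKO and WT levels led to the choice. Fits of DKO against another group could thus hardly change sign, and nothing is read from their signs. No paired analysis was possible because the columns carry no replicate numbers. Calls of members in contrasts that use DKO rest on the levels that led to the choice, and nothing is read from them. DESeq2 called 4 members each in DKO against Six3KO and Six6KO and 1 in the difference from the sum of single effects. Its counts over all genes were 769 (DKO against WT), 775 (DKO against Six3KO), 669 (DKO against Six6KO), 18 (Six3KO against WT), 2 (Six6KO against WT), 2 (Six3KO against Six6KO) and 240 (difference from the sum), where edgeR called 172, 78, 31, 1, 0, 1 and 0. With only the groups compared, edgeR called 10 genes in Six6KO against WT, 682 in DKO against Six6KO (3 members) and 1 member in DKO against Six3KO. With no scaling factor, 2 members were called in DKO against Six6KO. Leaving out 1 library at a time gave 20 to 205 genes in DKO against WT, 16 to 91 (1 to 2 members) in DKO against Six3KO, 1 to 77 (0 to 2 members) in DKO against Six6KO, 0 to 1 in Six6KO against WT, 1 to 2 in Six3KO against Six6KO and 0 to 3 in the difference from the sum; where 1 library of a group remained, here and below, it was assumed to vary like the other groups.

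Without the 3 libraries richest in lens genes, 0 genes and 0 members were called in DKO against Six3KO and 1 gene and 0 members in DKO against Six6KO. Without the 3 richest in pigment epithelium genes, 4 members were called in DKO against Six3KO, of which nothing is read since these libraries are also the lowest in Zic2 and Zic5, 1 gene and 0 members in DKO against Six6KO, 2 genes in Six3KO against WT and 2 in Six3KO against Six6KO. Both settings were added after seeing the data. The cause of these changes was not tested, apart from the fewer libraries.

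Estimates among WT and the single mutants that lie near 0 changed sign. Zic2 in Six3KO against Six6KO was 0.014 with relative log expression factors, 0.013 with DESeq2 and 0.0058 with only these groups. Without the lens-rich libraries, Zic5 was 0.054 in Six3KO against WT and 0.31 in Six6KO against WT, and Zic4 was -0.75 in Six3KO against Six6KO. Without the pigment-rich libraries the last 2 were 0.057 and -0.39. With 1 library left out, values in Six3KO against Six6KO ran from -0.42 to 0.16 (Zic1), -0.32 to 0.45 (Zic2), -0.14 to 0.75 (Zic4) and -0.46 to 0.22 (Zic5). In Six3KO against WT they ran from -0.15 to 0.24 (Zic2) and -0.41 to 0.027 (Zic5), and in Six6KO against WT from -0.38 to 0.38 (Zic2) and -0.39 to 0.29 (Zic5). Depth limits Zic4 most, with 22 to 52 reads per WT library.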
